A study of Mus musculus with 2 samples.

Results

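In T helper 2 (Th2) cells of the mouse, 1390 regions of open chromatin were centred in an exon of a protein-coding gene, with the centre farther than 1 kb from any start of such a gene in the basic annotation. In 13 of them the region itself reached over a start. They were chosen by position. Overlapping regions of both replicate lists were joined, those found in both replicates were kept, and the centre of each joined region was placed on the GENCODE M21 annotation of mm10. The 1390 regions made up 3.155% (95% Wilson interval 2.996 to 3.322) of the 44058 shared regions on the 21 main chromosomes. Of them 806 were centred in coding sequence, 551 in a 3′ untranslated region (3′ UTR) and 33 in a 5′ UTR. Over all regions, whatever their position, 86.7% of those of replicate 1 and 73.5% of those of replicate 2 overlapped a region of the other list. They lay in 1308 genes, which is 5.96% of 21938 protein-coding genes.

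The labels give the assay as ATAC-seq. ATAC-seq reads out where a transposase can reach the DNA, so that accessible stretches appear as peaks of sequenced fragments. The region names also hold the words ASTARR and insert, which the sources used do not explain. If they mean a cloned library, the values below would describe its inserts. The cells were primary Th2 cells of the mouse strain C57BL/6NJ, with no genetic change or treatment named in the labels, and sex and age were not given. There was 1 group of 2 biological replicates, drawn as different biosamples under 1 donor record, with no control and no other cell type. Whether different animals were used is not said, the difference between replicates may thus be technical, and no test between conditions was possible. Of the 9 Th2 marker genes checked, 8 had a shared region at a promoter, among them Gata3, Il4, Il5 and Il13, and Il1rl1 had none, beside 57.3% of all protein-coding genes. All 12 T cell markers had one, against 0 of 4 for CD8 and natural killer cells, 1 of 5 for B cells (Ebf1), 0 of 5 for myeloid cells and 0 of 3 for mast cells.

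Open chromatin marks DNA bound by regulatory proteins, most of it at promoters, in introns and between genes. Exons hold the protein code and the untranslated ends of the messenger RNA, and they are richer in G and C than introns. Some exons also carry regulatory DNA, either because a binding site lies within the code, because a short exon is embedded in a larger regulatory element, or because a CpG island extends over the exon. A region centred in an exon can therefore stand for any of these arrangements.

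For the 10 strongest coding regions by fold, the motif match nearest the summit of replicate 1 is shown, because these letters are what the later counts of motifs rest on. The search covered 200 bp at the summit and the AP-1, ETS (CCGGAAGT), RUNX and CTCF motifs. Each stretch is 27 bases long, is read 5′ to 3′ on the strand of the gene and comes from RefSeq's sequence of mm10 (GRCm38). Capitals mark a match to the AP-1 letters TGANTCA, bound by Fos, Jun and Batf proteins, or to the RUNX letters TGTGGTT, read on either strand. The stretches of Chd2 and Ehd1 lie wholly outside the exon, within the same region, and the other 5 lie inside the exon.
Muc4, AP-1, chr16:32750800-32750826, plus strand: cctctacaagTGACTCAactcctgcac
Ranbp2, RUNX, chr10:58480382-58480408, plus strand: ttttagaagaAACCACAagagaaagga
Chd2, RUNX, chr7:73503585-73503611, minus strand: ggagtcaatgTGTGGTTcctatttgag
Spef2, RUNX, chr15:9647480-9647506, minus strand: atcctacatcAACCACAtcaaaacagt
Zfp51, RUNX, chr17:21463749-21463775, plus strand: attaaagagaAACCACAccagtgtggc
Ehd1, AP-1, chr19:6297788-6297814, plus strand: gttccctatcTGAGTCAgagttgacct
Gen1, AP-1, chr12:11242121-11242147, minus strand: catcagaatcTGAGTCAtcggccatcc
The other 3 of the 10, in Cyp4f37, Angptl6 and Bend6, had no match to these motifs in that window.

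Fold enrichment is the authors' value at a region's summit, the ratio of the count there to the local background. Values are given for replicate 1 and then replicate 2. The strongest coding region lay in exon 2 of 27 of Muc4, a membrane mucin, at chr16:32750500-32751218, with 17.8 and 19.8. All of its 719 bp were exonic, inside an exon of 3197 bp. Ranbp2, a nucleoporin, followed with 16.5 and 16.4 in exon 20 of 29, a long exon of 4663 bp, at chr10:58479862-58480746. In both genes the region lay over 10 kb from the nearest start site, at 14973 bp in Muc4 and 17644 bp in Ranbp2. Chd2, a chromatin remodeller, had 15.98 and 17.5 at chr7:73503091-73503764, but only 19.9% of that region was exonic, since exon 8 is 134 bp long. The same held for Spef2, a protein of the sperm tail, with 14.9 and 14.9 and 20.9% exonic bases, and for Ehd1, an ATPase of endocytic recycling, with 14.3 and 16.5 and 18.98% exonic bases. Zfp51, a zinc finger protein, had 14.5 and 15.2 in its last exon, all of it exonic. Gen1, a resolvase of recombination intermediates, had 13.4 and 14.7 in its last exon, with 87.2% exonic bases. The strongest coding regions were thus of both kinds, regions inside a long exon and regions that covered a short exon together with its introns. Of the 10 strongest, only that of Angptl6, a secreted angiopoietin-like protein, with 13.7 and 13.6, was CpG-rich in the sense given below. Over all 806 coding regions the CpG-rich share was 33.4%. A fold of at least 10 was reached by 10.8% and 13.8% of CpG-rich and by 10.1% and 13.8% of other coding regions.

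The 3′ UTR regions had 1 value far from the rest. The region in the last exon of Lars2, the mitochondrial leucyl-tRNA synthetase, at chr9:123461798-123462187, had 40.7 and 42.6, and the next, Cyp4f16, had 15.5 and 16.5. The Lars2 region was 390 bp wide, with 781 and 899 counts at the summit, against a median of 29 and 40 over all exon-centred regions. Of its 31-base words, 63.9% occurred elsewhere in the genome, and 0 in the mitochondrial genome. Only 3 of the 1390 regions reached 50% by this measure (Lars2, Zfp384 and Gm8113), and 1132 had no such word at all. Of the 10 strongest 3′ UTR regions 7 were under 5%, against 92.9% of all 551. Cyp4f16 was at 24.9% and Krt6b at 15.6%. Among the 10 strongest coding regions 6 were under 5%, against 94.7% of all 806. What part repeated sequence has in the values of Lars2 and the other strong regions was not tested. Behind Lars2 and Cyp4f16 came Phf20l1, a reader of methylated lysine, with 14.7 and 16.1. The keratin gene Krt6b had 14.9 and 14.6, and the transporter gene Mfsd4b1 14.0 and 15.0. Hs2st1, which sulfates heparan chains, had 13.6 and 14.6, at 137.9 kb from the 5′ end of the gene. Slc35a5 had 13.3 and 13.9, Atad1, an ATPase that clears mislocalised membrane proteins from mitochondria, 12.8 and 12.9, and Pik3r3, a regulatory subunit of phosphoinositide kinase, 12.5 and 14.0. Rest, the repressor of neuronal genes, had 12.4 and 14.1 at chr5:77285395-77286094, inside a last exon of 5730 bp. All 10 of the strongest 3′ UTR regions lay in the last exon, as did 546 of all 551. Of these 10, 1, that of Lars2, was CpG-rich, against 4.17% of all 551.

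The 33 regions of 5′ UTRs were the few that lay farther than 1 kb from the start but still ahead of the code. Their median distance to the nearest start was 1.74 kb, and 19 of them lay 1 to 2 kb from it. The strongest lay in exon 2 of Arsa, a lysosomal sulfatase, at chr15:89475727-89476695, with 14.9 and 13.7. Pdcl3, a chaperone of the phosducin family, had 12.9 and 15.3, and Sf3b5, a subunit of the splicing factor that binds the branch point, had 12.7 and 13.5. Acbd4, which binds acyl-CoA, had 12.6 and 13.8, and the nucleoporin gene Nup160 had 12.3 and 13.4. These 4 were CpG-rich and Arsa was not. The Acbd4 region itself reached over a start, which lay 1008 bp from its centre.

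**Figure D1:**
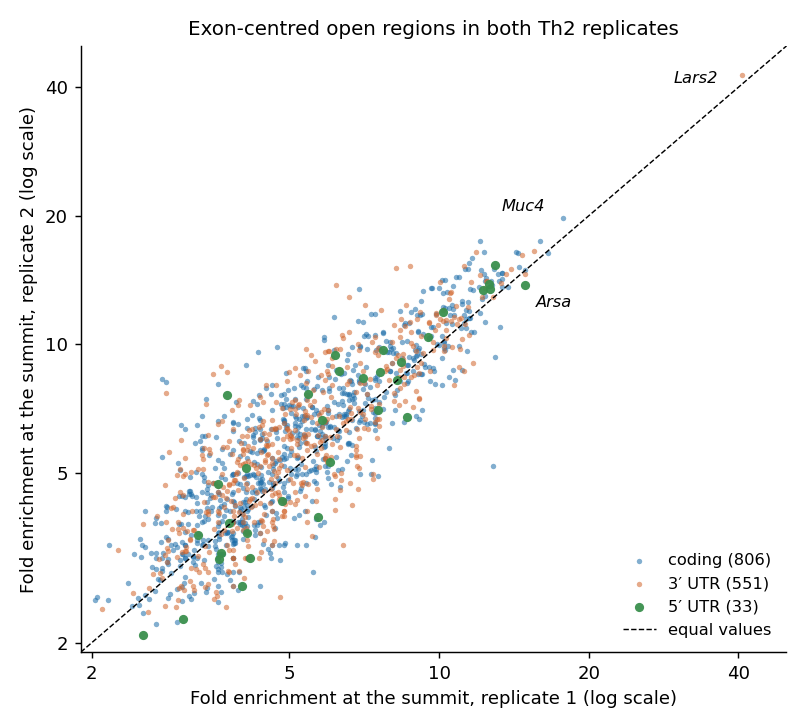
Fold enrichment of the 1390 exon-centred regions in replicate 1 (horizontal) and replicate 2 (vertical), both on log scales, coloured by coding, 3′ UTR or 5′ UTR, with the line of equal values dashed. Most points lie near the line and 934 lie above it, and Lars2 stands alone at 40.7 and 42.6.

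The replicates gave similar values for most regions. The median fold was 4.99 in replicate 1 and 5.82 in replicate 2, and 934 of the 1390 regions were higher in replicate 2 and 456 in replicate 1. From the 5th to the 95th percentile the ratio of replicate 2 to replicate 1 ran from 0.762 to 1.66, and Spearman's rho was 0.833 across these regions, which share libraries and are not independent replicates. A factor above 2 separated the replicates in 18 regions. The region of Nkap, chosen after its values were seen, had 12.9 in replicate 1 and 5.20 in replicate 2, from 53 and 22 summit counts. Ccnj, chosen in the same way, had 2.77 and 8.29, from 11 and 56 counts. A fold of at least 10 in both replicates was reached by 112 regions, 70 coding, 36 in 3′ UTRs and 6 in 5′ UTRs.

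By fold, exon-centred regions were among the weaker shared regions. Coding regions had medians of 4.97 and 5.87, 3′ UTR regions 4.95 and 5.76, and 5′ UTR regions 6.04 and 7.002. Regions centred in introns had 5.39 and 6.19, and intergenic regions 5.65 and 6.39. Coding and 3′ UTR regions were thus below introns in both replicates, but by less than the gap between the replicates. Promoter regions, within 1 kb of a start, had 9.22 and 10.4, above all of these by more than the replicates differed. Exon-centred regions of one list were also found less often in the other list than promoter regions, at 79.9% of 1771 in replicate 1 and 65.9% of 2111 in replicate 2, against 96.7% and 94.2%. For introns the shares were 82.6% and 65.8%. Coding regions were found again in 81.2% and 69.3% of cases and 3′ UTR regions in 77.8% and 61.1%.

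Relative to the sequence available, coding exons held more open regions than introns. Counting only sequence over 1 kb from a start, shared regions were centred at 26.4 per Mb in coding sequence, 45.0 in 5′ UTRs, 17.6 in 3′ UTRs, 17.02 in introns and 9.32 between genes. The share of bases inside a shared region was 2.02% in coding sequence, 1.35% in 3′ UTRs and 1.20% in introns. Here shared regions of any class count, also those centred elsewhere. Counted in each replicate alone, coding density was 32.8 and 37.8 per Mb, 3′ UTR density 23.5 and 29.5, and intron density 20.9 and 26.3. Coding sequence was above introns in each list by more than the replicates differed, whereas 3′ UTRs exceeded introns by less than that. The 5′ UTR value rests on 33 regions in 0.733 Mb. These densities use the starts of the basic annotation. In the fuller, comprehensive one, 215 of the 806 coding regions lay within 1 kb of a start. So did 48 of the 551 3′ UTR and 1522 of the 15401 intron regions. What part such starts have in the higher coding density was not tested.

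**Figure D2:**
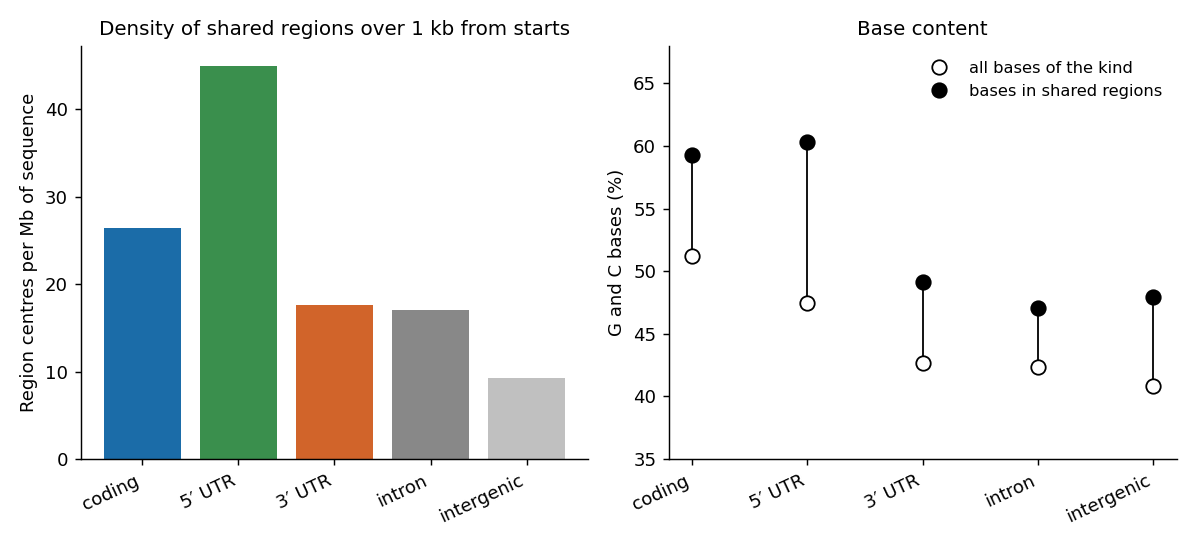
Left, shared region centres per Mb of sequence of each kind, counting only sequence over 1 kb from a start site. Right, the percentage of G and C in all bases of each kind (open circles) and in the bases inside shared regions (filled circles), on an axis that starts at 35%; coding bases go from 51.2% to 59.3% and 3′ UTR bases from 42.7% to 49.1%.

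The open part of exons was richer in G and C than exons at large. Coding bases over 1 kb from a start were 51.2% G and C. Those inside shared regions of any class, also regions centred outside exons, were 59.3%. The rate of CpG pairs against that expected from base content (CpG observed over expected) was likewise higher, at 0.404 over all coding bases and 0.675 over the open ones. In 3′ UTRs the G and C content was 42.7% over all bases and 49.1% over open ones, and the CpG ratio 0.224 and 0.310. Introns had 42.4% and 47.0%, with CpG ratios of 0.187 and 0.251. By region, the median G and C content was 56.5% for coding, 56.9% for 5′ UTR and 48.8% for 3′ UTR regions, against 46.4% for intron and 59.9% for promoter regions.

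A region was called CpG-rich when its G and C content was at least 50% and its CpG ratio at least 0.6, limits chosen after the values were seen. By these limits 269 of 806 coding regions (33.4%) were CpG-rich, 16 of 33 in 5′ UTRs, and 23 of 551 in 3′ UTRs (4.17%). The share was 1.74% in introns and 73.1% at promoters. CpG-rich coding regions lay in longer exons, with a median exon length of 1130 bp against 187 bp for other coding regions, and 55.02% of them lay in the last exon against 19.6%. They were wider, at a median of 862 bp against 636 bp, and 82.6% of their bases were exonic against 41.8%. Their fold was no higher, at 4.79 and 5.19 against 5.13 and 6.10. They lay nearer to a start, at a median of 4342 bp against 12404 bp. In the fuller, comprehensive annotation 195 of the 269 and 396 of the 537 other coding regions lay over 1 kb from any start.

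**Figure D3:**
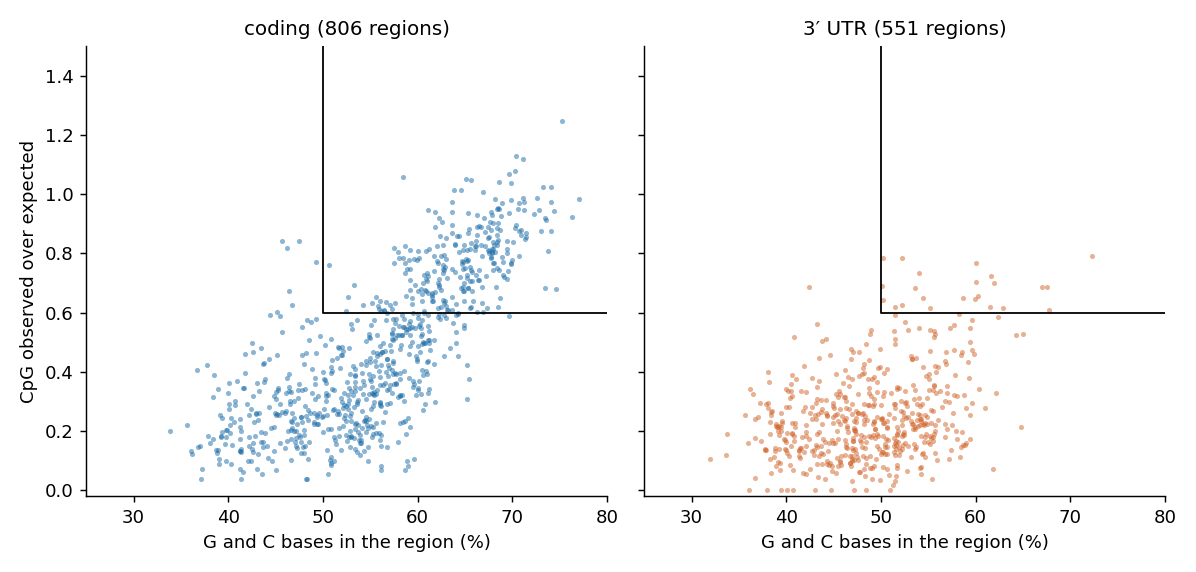
Each point is 1 region, by its percentage of G and C (horizontal) and its CpG observed over expected (vertical), for coding regions (left) and 3′ UTR regions (right). The black lines mark 50% and 0.6; 269 coding regions lie above and to the right of them, and 23 in 3′ UTRs.

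The strongest CpG-rich coding regions were named after their values were seen. After Angptl6, the first lay in exon 2 of 3 of Klf1, the erythroid Krüppel-like factor, at chr8:84902558-84903775, with 13.2 and 14.6. Its centre was 1239 bp from the start. Prdm2, a zinc finger protein with a methyltransferase-like domain, had 12.9 and 15.0 in exon 6, 50.6 kb from its start, over a region of which 12.1% was exonic. Msra, which repairs oxidised methionine, had 12.7 and 14.1 in exon 6. Of the 10 strongest, 5 lay in last exons. Magi2, a scaffold protein of synapses, had 12.2 and 12.8 in exon 22 of 22. Pomc, the precursor of pituitary hormones, had 12.0 and 13.6 in exon 4 of 4 at chr12:3959709-3960591. Cacna1a, a neuronal calcium channel subunit, had 12.1 and 11.9 in exon 47 of 47, where 68.6% of the bases were G or C. Fgf23, a bone hormone of phosphate balance, had 11.7 and 13.4 in exon 3 of 3. The zinc finger gene Zfp771 had 11.5 and 11.5 in exon 3 of 3.

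The place and the length of the exon went with the density of coding regions. Over 1 transcript per gene, that with most coding bases, last exons held 43.4 centres per Mb of coding sequence (n = 251) and internal exons 22.0 (n = 522). The few centres in first exons (n = 12) and in genes of a single exon (n = 16) gave 41.8 and 43.5 per Mb, close to last exons. Last exons made up 19.2% of the coding bases considered and 31.3% of the centres. Coding sequence in exons under 200 bp held 19.7 centres per Mb, and that in exons from 1 kb to under 3 kb held 42.3. In exons of 3 kb and over the value was 28.5, above the shortest exons and below those of 1 to 3 kb. As given above, CpG-rich coding regions lay in longer exons and more often in last exons. The separate parts of exon place, exon length and CpG content were not tested. In 3′ UTRs 546 of 551 regions lay in the last exon, which follows from where 3′ UTRs are.

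**Figure D4:**
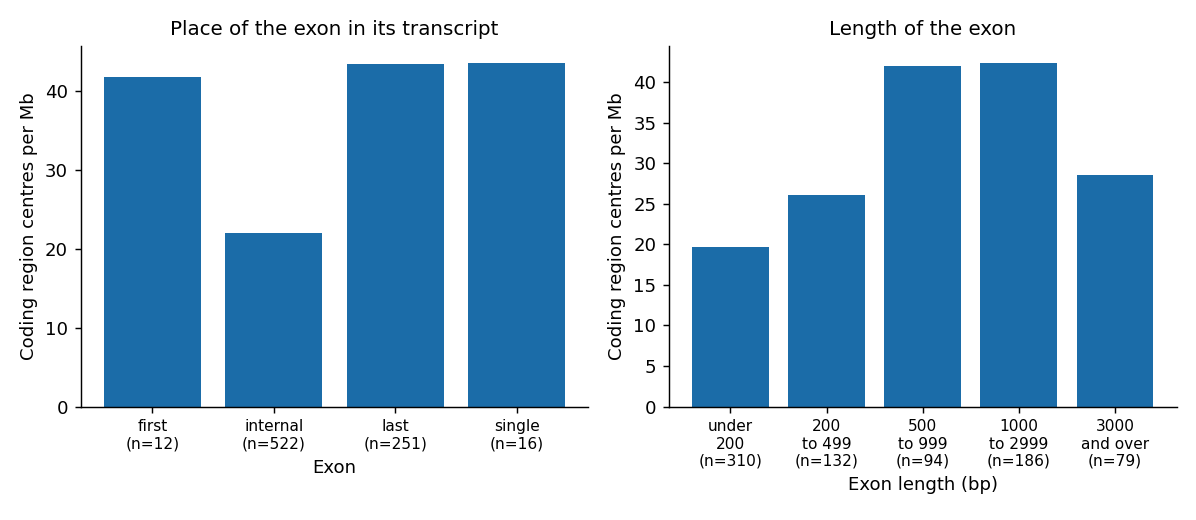
Coding region centres per Mb of coding sequence, by the place of the exon in its transcript (left) and by exon length in bp (right), with the number of regions under each bar. Last exons stand at 43.4 and internal exons at 22.0, and exons from 1 kb to under 3 kb at 42.3.

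Few regions followed the outline of an exon. Of coding regions, 444 of 806 (55.1%) contained the whole exon and 141 (17.5%) lay wholly inside it, whereas 404 of 551 3′ UTR regions (73.3%) lay inside the exon. Both edges of the joined region fell within 100 bp of both edges of 1 exon in 54 of the 1390 regions. By each replicate's own edges, 37 met this limit in both replicates. The joined edges fell within 25 bp in 2. These 2 were exon 2 of Shisa7, a protein of synapses, with 9.56 and 10.3, and exon 2 of Chpf, a chondroitin synthesis factor, with 3.12 and 3.78. The next were the last exons of Amh, the anti-Müllerian hormone, with 3.17 and 4.45, and Ecm1, an extracellular matrix protein, with 3.66 and 2.92. Then came 4931428F04Rik, Stmn3, C1qtnf4, Hephl1 and Fam107b, with folds from 2.76 to 7.83. Coding regions had a median width of 699.5 bp, 3′ UTR regions 606 bp and intron regions 612 bp, so that coding regions were wide relative to a median exon length of 306 bp.

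Just outside the 1 kb limit lay regions in Ier5l at 1001 bp with 7.51 and 8.41, Sox18 at 1004 bp with 3.24 and 4.39, and Ppp1r37 at 1004 bp with 6.30 and 8.67. Just inside, and so not counted, lay Prlhr at 1000 bp with 4.87 and 6.32, Foxb2 at 993 bp with 3.96 and 4.50, and Zfp580 at 985 bp with 2.92 and 2.61. Exonic centres within the limit numbered 6039. The median distance to the nearest start was 8.9 kb for coding and 13.2 kb for 3′ UTR regions. In the comprehensive annotation, which lists further transcripts, 278 of the 1390 regions lay within 1 kb of a start, 218 of a protein-coding gene and 60 of another gene only. Counted without them, 1112 regions remained, 591 coding, 503 in 3′ UTRs and 18 in 5′ UTRs.

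Among the genes, 1231 held 1 exon-centred region, 72 held 2 and 5 held 3. In Tnrc6b, a scaffold protein of microRNA silencing, all 3 lay along its last exon of 11997 bp, with 5.37 and 6.83, 7.55 and 7.25, and 5.36 and 6.05. Il6ra, the receptor subunit for interleukin 6, had 1 in its 3′ UTR with 5.74 and 5.16 and 2 in coding exons with 3.61 and 3.63, and 2.64 and 3.24. The others were Espn, an actin-bundling protein, with folds from 3.32 to 10.2, Srcin1, a Src kinase inhibitor, with 2.83 to 4.23, and Cyp4f39. Of the 1308 genes, 892 (68.2%, 65.6 to 70.7) also had a shared promoter region, against 56.6% (55.9 to 57.3) of the other protein-coding genes. Genes with an exon-centred region were longer, at a median of 25.6 kb against 16.2 kb, and the part of length in this difference was not tested. In 409 genes the exon held the only shared region of the gene body.

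Some genes of naive and memory T cells held exon-centred regions. Of 12 such genes 6 had one, against 5.96% of all protein-coding genes. Of these 6 regions 5 lay in the 3′ UTR, against 39.64% of all exon-centred regions. With 6 regions, no difference from that share is claimed. Shared regions of any class were also many in these genes, at a median of 6 per gene body against 1 over all protein-coding genes. Ccr7, the chemokine receptor for lymph node entry, had 6.49 and 6.31, Bach2, a repressor of effector genes, 5.82 and 5.98, Satb1, a chromatin organiser, 4.89 and 4.22, and the interleukin 7 receptor gene Il7r 3.85 and 3.84. Outside the 3′ UTR, Tcf7, a transcription factor of naive and memory T cells, had 9.73 and 8.78 in coding exon 3 at chr11:52260786-52262421. Of 20 T cell genes 5 had one. The costimulatory receptor gene Cd28 had 6.80 and 5.49 in its 3′ UTR. Cd3e, a chain of the T cell receptor complex, had 3.19 and 2.72, the adaptor Lat 2.54 and 2.35, and the phosphatase-like Ubash3a 2.60 and 2.36, all near the low end of the range.

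Of the 18 Th2 genes 3 held an exon-centred region, beside 5.96% of all protein-coding genes. Il4ra, the receptor chain for interleukin 4, had 3.36 and 4.28 over a wide 3′ UTR region at chr7:125577589-125580736. Ptgdr2, the prostaglandin receptor that marks Th2 cells, had 5.98 and 5.19 in coding exon 3 of 3, and Bhlhe41, a transcription factor, had 3.93 and 2.66 in its last exon. Of 24 activation genes 4 had one, namely Cd40lg (5.97 and 4.86, coding), Cd69 (5.84 and 7.74), Irf4 (3.73 and 4.36) and Il2ra (2.98 and 3.69), the last 3 in 3′ UTRs. Stat3, a signal transducer of cytokines, had 2 coding regions, 4.02 and 4.597 in exon 20 and 3.25 and 4.24 in exon 24, and Il2rb had 2.73 and 3.14. The AP-1 genes Fosb and Junb had 3.35 and 3.06, and 4.45 and 4.54, in 3′ UTRs. The Junb region was wide and itself reached over a start, which lay 1375 bp from its centre.

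Genes listed for other helper subsets held such regions too, and their counts also stand beside 5.96% of all protein-coding genes. A listed gene need not be particular to its subset, and Il2ra is also among the activation genes above. Of 11 regulatory T cell genes 2 had one, Il2ra and Foxp3, the regulator of that subset, with 6.201 and 9.77 in its last exon at chrX:7593207-7593559. Of 15 Th1 genes 3 had one, in coding sequence. Tbx21, the Th1 regulator, had 5.88 and 5.76 in exon 2, Il18rap 3.33 and 5.71, and Il12rb1 2.97 and 2.23. Of 13 Th17 genes 3 had one, Ltb4r1 with 7.54 and 9.45, Ccr6 with 6.04 and 5.30 and Il1r1 with 4.10 and 3.61. None was found in 11 follicular helper, 11 CD8 and natural killer cell, 13 myeloid or 14 housekeeping genes. Among 12 B cell genes Blnk had one, with 4.24 and 5.90, and among 9 mast cell and basophil genes Hdc had one, with 4.97 and 4.41. Of 30 chromatin genes 5 had one, all coding: besides Chd2 these were Kdm6b (8.58 and 8.56), Arid1b (6.74 and 7.30), Kdm6a (5.39 and 7.45) and Chd7 (3.45 and 5.50). With lists this small, no difference between lists is claimed.

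AP-1 letters were rarer at summits of CpG-rich than of other coding regions. Both classes were split on base content, with which the share of any letters moves, and its part here was not tested. Shares are of 200 bp windows at each replicate's summit that hold the letters on either strand, and their intervals cover counting error only. The AP-1 letters TGANTCA were in 18.6% (15.6 to 22.1) and 19.4% of the 537 other coding regions and in 19.8% (16.7 to 23.3) and 20.1% of 3′ UTR regions. In the 269 CpG-rich coding regions they were in 1.49% (0.580 to 3.76) in both replicates. All 109 3′ UTR regions with these letters in replicate 1 and all 111 in replicate 2 were among the 528 that were not CpG-rich, so a low share was not particular to coding sequence. Introns had 29.2% and 30.3%, promoters 3.94% and 4.196%, and windows 1 kb away from exon-centred summits 3.99% and 4.07%. Exonic regions outside the CpG-rich class thus held these letters less often than introns and more often than nearby sequence, by more than the replicates differed.

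**Figure D5:**
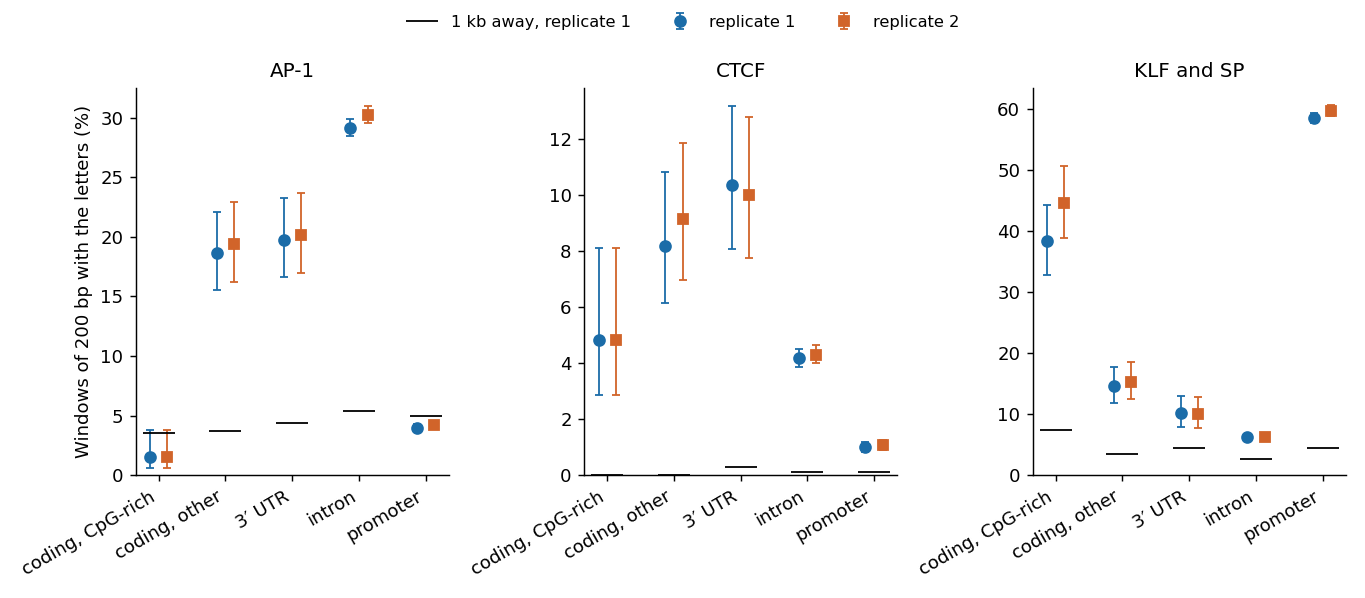
Percentage of 200 bp windows at the summit that hold the AP-1, CTCF or KLF and SP letters, for replicate 1 (circles) and replicate 2 (squares) with 95% Wilson intervals, and for windows 1 kb away (dashes). AP-1 is at 1.49% in CpG-rich coding regions and 18.6% and 19.4% in the others, whereas KLF and SP are at 38.3% and 44.6% in the CpG-rich ones.

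The KLF and SP letters GGGCGG showed the opposite order. They were in 38.3% and 44.6% of CpG-rich coding regions, in 14.5% and 15.3% of other coding regions, in 10.2% and 9.98% of 3′ UTR regions and in 6.26% and 6.27% of introns. Promoters had 58.5% and 59.6%. These letters consist of G and C alone. The CTCF consensus was in 7.07% and 7.69% of coding and 10.3% and 9.98% of 3′ UTR regions, against 4.18% and 4.30% of introns, 5.88% and 6.00% of intergenic and 0.999% and 1.06% of promoter regions. In windows 1 kb away from exon-centred summits it was in 0.119% and 0.158%. The RUNX letters TGTGGTT were in 7.05% and 7.48% of exon-centred regions and in 4.58% of the windows 1 kb away in both replicates. In CpG-rich coding regions they were in 0.372% and 2.60%, against 3.56% and 3.35%. In other coding regions they were in 9.50% and 8.94%, against 3.83% and 4.54%, and in introns in 10.36% and 10.025%. The STAT letters TTCNNNGAA were in 8.92% and 9.06% of exon-centred regions, against 6.24% and 6.52% away. CpG-rich coding regions had 1.86% and 1.49%, against 5.66% and 5.86%. Other coding regions had 11.36% in both replicates, against 5.35% and 5.44%, and introns 12.47% and 12.57%. For RUNX and STAT letters, 3′ UTR regions were above the windows away. The GATA letters AGATAA, bound by the Th2 regulator Gata3, were in 7.70% and 7.41% of exon-centred regions, against 8.73% and 9.64% away. In CpG-rich coding regions they were in 2.60% and 2.23%, against 8.18% and 10.7%. Other coding regions had 9.50% and 8.01%, against 9.49% and 9.68%, and 3′ UTR regions 8.53% and 9.62%, against 8.33% and 9.12%. The NFAT letters TGGAAA were in 11.9% and 11.9% of exon-centred regions, against 16.5% and 17.1%, and were below the windows away in each of these classes. The part of base content was not tested. No spelled motif is contained in another, though matches can overlap.

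A cluster of cytochrome P450 genes on chromosome 17 held open regions in the last exon of 6 genes, and was picked out after the values were seen. The Cyp4f enzymes hydroxylate fatty acids and leukotrienes. Of 8 Cyp4f genes there, 6 held exon-centred regions, 9 in all within 455 kb. The values in the last exons were 15.5 and 16.5 in Cyp4f16, 14.4 and 16.4 in Cyp4f37, 10.6 and 13.7 in Cyp4f17, 7.03 and 11.3 in Cyp4f13, 5.39 and 5.87 in Cyp4f14 and 2.85 and 3.29 in Cyp4f39. A further region in coding exon 4 of Cyp4f39 had 13.4 and 13.6. The neighbours Cyp4f40 and Cyp4f15 had no shared region in the gene. The last-exon regions are alike in sequence, with 71.3% to 89.0% identical bases over the best local alignments of 146 to 574 bp. Cyp4f40 and Cyp4f15 were not aligned. To make the likeness visible, the 27 bases most alike among the 6 regions are shown, with capitals for the 23 that all share. They were picked from all windows of that length, so their likeness is not that of the whole regions.
Cyp4f16, chr17:32551102-32551128, plus strand: cTGGCGcTGACtCTGCTGCGCTTCCGc
Cyp4f37, chr17:32635022-32635048, plus strand: cTGGCGtTGACtCTGCTGCGCTTCCGc
Cyp4f17, chr17:32528763-32528789, plus strand: cTGGCGcTGACtCTGCTGCGCTTCCGc
Cyp4f13, chr17:32924882-32924908, minus strand: cTGGCGcTGACcCTGCTGCGCTTCCGc
Cyp4f14, chr17:32905606-32905632, minus strand: cTGGCGcTGACgCTGCTGCGCTTCCGa
Cyp4f39, chr17:32492348-32492374, plus strand: gTGGCGcTGACaCTGCTGCGCTTCCGc
All 6 stretches lie inside the last exon. Of the 31-base words of these regions, 24.9% occurred elsewhere in the genome for Cyp4f16, 14.5% for Cyp4f17, 12.99% for Cyp4f37, 10.1% for Cyp4f14, 7.67% for Cyp4f13 and 0 for Cyp4f39. How reads from such copies were placed is not given in the sources used here, so the separate values of these genes are uncertain.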

How the data were processed

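ATAC-seq of 2 Th2 libraries was analysed from 1 deposited list of open regions per library, called per library from 1 alignment on mm10, per the file headers. For the aligner, the peak caller and any shift of reads for the transposase, the tool and version are not stated in the sources used. Words in the region names (ASTARR, insert) are not explained there, and if they mean a cloned library the values would describe its inserts. The deposited fold enrichment is a ratio at the summit and was used to describe and rank regions. The −log10 p-values and −log10 q-values are the authors' own. The deposited score was not used further. Depth is not stated. Summit counts were recovered from each deposited fold and p-value under a Poisson model with a pseudocount of 1, and returned the p-value within 0.001 of −log10 p for 44058 shared regions of replicate 1 and 44057 of replicate 2. Intervals are 95% Wilson intervals and cover counting error only, and regions are not independent replicates.

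Regions overlapping by at least 1 bp were joined. Centres were classed with the GENCODE M21 basic annotation in the order promoter, coding, 5′ UTR, 3′ UTR, intron and intergenic. Exon numbers come from the transcript at the centre that has most coding bases. Sequence is RefSeq's GRCm38, in which 16 motifs were searched. Words of 31 bases were looked up on both strands of the primary assembly. Where 1 gene's exon overlaps another gene, both are possible. Joining, classing and motif search were tested on simulated data. The tools were Python 3.11.15, pandas 2.3.3, numpy 2.4.6 and biopython 1.88.

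The members, the 18 gene lists, the 8 gene families and the rules were chosen with earlier results of these data known. Named regions were the 10 strongest coding, 10 strongest 3′ UTR and 5 strongest 5′ UTR regions by the lower of both folds, genes with 3 regions, list members, the 10 regions nearest an exon's outline and the 3 nearest the 1 kb limit on each side. Genes tied with 2 regions were counted and not all named, and a few named regions are not reported here. Others are said in place to have been chosen after their values were seen. The alternatives covered the overlap, the q-value, the position used, the distance limit, the start sites and exons used, the motif window and each replicate alone.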

Additional observations from a re-analysis of the deposited data

How the results depend on the processing

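Of the values recomputed under other settings, 55 moved and 62 did not, where a count had to change by over 1.5 times and another value by more than 1 SD between the replicates. With only regions of −log10 q of at least 10 in both replicates, 723 exon-centred regions in 697 genes remained, 2.567% of all, with a median fold of 7.302, a median width of 780 bp and 21.02% CpG-rich. The AP-1 share was then 20.06%, the CTCF share 7.676% and the KLF and SP share 20.06%. From 1 list alone, 1771 to 2111 regions were counted, 3.442% to 3.473% of all, 54.52% to 56.47% of them coding and 41.45% to 43.63% in 3′ UTRs. Their median fold was 4.375 to 4.631, their width 437 to 443 bp, the last-exon share 57.76% to 58.83% and the CpG-rich share 19.37% to 20.5%. An overlap of at least 50% of the smaller region gave 3.132% of all. Placing regions by summits gave 3.041% of all, 54.63% coding, 41.94% in 3′ UTRs, 666 bp and 59.78% in last exons. A limit of 2.5 kb gave 2.76%, 55.43%, 43.59%, 640.5 bp and 61.02% in that order, with 51.87% G and C and 18.09% CpG-rich. Starts of genes of any kind gave 2.971% of all. The following were chosen after seeing the data. Comprehensive start sites gave 2.524% of all, 53.15% coding, 45.23% in 3′ UTRs, 644.5 bp, 64.75% in last exons, 51.91% G and C and 19.78% CpG-rich. Comprehensive exons gave 4.533%, 41.41%, 28.79% and 50.78% for the same shares, with 51.85% G and C and 19.08% CpG-rich. Stricter CpG limits (55% and 0.65) gave 17.91%. In 100 bp windows AP-1 was at 9.712%, CTCF at 6.835%, RUNX at 4.173% and KLF and SP at 10.72%, as shorter windows hold fewer letters. For other differences the cause was not tested. No paired analysis was possible because there is 1 group only. Depth is not stated. Exon-centred regions found in 1 list only had median folds of 3.08 in replicate 1 and 3.39 in replicate 2, below those of shared regions (4.93 and 5.76), and a region missing from a list is not shown to be closed.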

Other observations

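Counts of members with an exon-centred region are given for gene families, beside 5.96% of all protein-coding genes. Of 465 zinc finger genes 28 (6.02%) held one, among them Zbtb21 with 12.2 and 12.9 in its 3′ UTR, Zscan10 with 11.5 and 15.5 in its last coding exon and Zfp697 with 11.5 and 12.0. Of 371 solute carrier genes 24 (6.47%) held one, 16 of their 26 regions in 3′ UTRs, such as those of Slc43a2 with 8.55 and 11.1 and Slc30a2 with 9.72 and 9.68. Of 1135 olfactory receptor genes 3 held one (Olfr432, Olfr623 and Olfr69), and of 69 protocadherin genes none did. Of 80 ribosomal protein genes 3 held one, Rpl22, Rps20 and Rpl3, with folds from 2.05 to 4.98. These are counts with no test.

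Chromosome 7 had 136 exon-centred regions among 2722 shared ones (5.00%), and the other chromosomes ran from 1.80% to 3.76%, with 0 of 4 on Y.

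Under the comprehensive annotation, in which every transcript of a protein-coding gene counts, 827 regions were coding, 575 in 3′ UTRs, 105 in 5′ UTRs and 490 in exons of transcripts with no coding part. That last group has 0 members under the basic annotation.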
